A study of Oryza sativa with 18 samples.

Results

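In rice coleoptiles, 308 of 2131 short regions met a rule for losing little of their nitrogen-air methylation gap after 1 d back in air. The authors had picked the 2131 regions for methylation that differed between air and nitrogen. The members were chosen from the methylation levels themselves. A region needed a level of at least 20% after 4 d in air, a level at least 10 percentage points higher after 4 d in nitrogen, and a fall on re-aeration of under 30% of that gap. Of the 2131 regions, 276 were below 20% in air and 6 more had too small a gap. The 308 members were 16.7% of the 1849 regions that met both of these conditions, called eligible below, and the other 1541 eligible regions had lost 30% of the gap or more. Regions chosen by the same rule without 1 replicate number lost 35.7% to 38.5% of the gap in its libraries, above that threshold. The other eligible regions lost 48.01% to 53.7% there. The 3 deposited tables together held 8941 regions.

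The plants were wild-type Oryza sativa cv Amaroo, grown in the dark at 30 °C in medium bubbled with air or with nitrogen gas, and no sample carried a transgene or a mutation by its label. The members rest on 9 libraries of whole coleoptiles, 3 per group: 4 d in air (4dA), 4 d in nitrogen (4dN), and 3 d in nitrogen with 1 d of air after it (3dN1dA, called re-aeration here). Embryos of the dry seed at 0 h and embryos after 24 h in air (24hA) or in nitrogen (24hN), also 3 libraries each, served as groups that the choice of members did not use. From air-grown plants the primary leaf had been cut away before coleoptiles were taken, so dissection and oxygen cannot be told apart, and the labels do not say how many plants made up a library.

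Rice is unusual among cereals in that its coleoptile, the sheath around the first leaf, elongates without oxygen while root and leaf growth stay arrested. Air then lets the leaf and root grow, and the coleoptile stops elongating. Plant cytosines are methylated in the CG, CHG and CHH contexts. Copying enzymes keep the symmetric marks through cell division, CHH methylation is laid down anew by RNA-directed methylation and by chromomethylases, and methylation is lost either by dilution when DNA replicates or by DNA glycosylases that cut out the methylated base. In whole coleoptiles, fewer cells of a type and less methylation per cell cannot be told apart.

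Methylation was measured by MethylC-seq, a bisulfite method, and a level is the percent of reads in a region that were methylated. The column names carry CG and the names of the tables CNN, so the cytosine context is not settled by the sources used here. The deposited total counts of a region are called reads here, and each library held 396689 to 531162 of them over these regions. They rose with length, from a mean of 45.1 per library in the member of 3 bp to 2076 in that of 573 bp. The median reads of the members were between 168 and 213.5 per library, and 286 of the 308 members had at least 30 reads in each of the 9 libraries. At the median of 195 reads a level of 50% has a 95% Wilson interval of 42.8% to 56.7%, and at 30 reads one of 33.2% to 66.8%, which covers counting error only. Separate cultures are not stated for the 3 libraries of a group, so a p-value here reflects only how these samples vary, which may be technical. No genome of a stated build was used here, so positions are the deposited ones and carry no gene and no sequence.

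Over the members, methylation was low in air, high in nitrogen and close to the nitrogen level after re-aeration. The mean level of the 308 members was 41.8%, 37.2% and 39.8% in the 3 air libraries, 71.2%, 73.3% and 71.4% in the nitrogen libraries, and 65.6%, 66.0% and 67.2% in the re-aeration libraries. All re-aeration libraries lay above all air libraries and below all nitrogen libraries. The air mean was 39.6% ± 2.29, the nitrogen mean 71.9% ± 1.19 and the re-aeration mean 66.3% ± 0.803 (SD of 3 libraries each). The other 1541 eligible regions stood at 41.05% ± 2.22 in air, 73.5% ± 0.257 in nitrogen and 55.8% ± 0.386 after re-aeration (SD of 3 libraries each). The difference in re-aeration level between the 2 sets follows from the rule, and no test is attached to it.

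**Figure D1:**
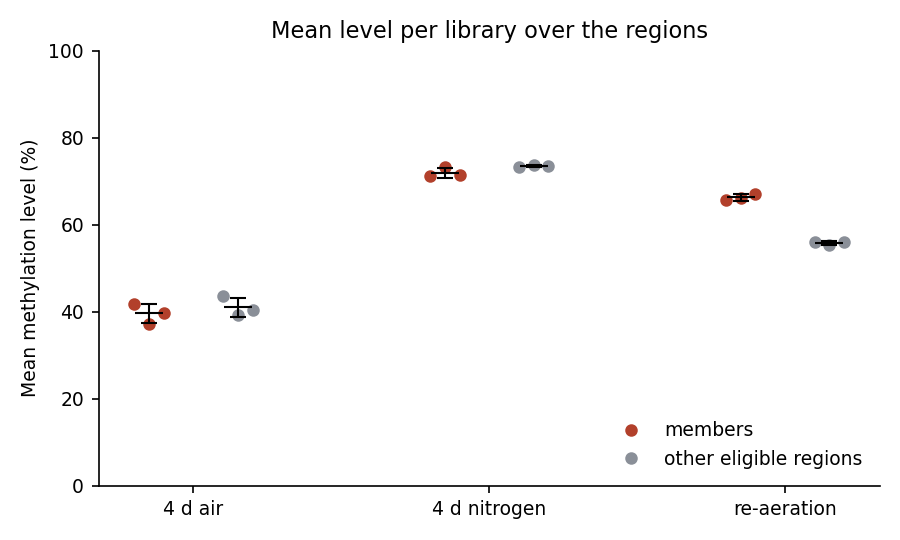
Mean methylation level (y axis, percent) over the 308 members (red) and the other 1541 eligible regions (grey) in each coleoptile library, by group; points are libraries and black bars the mean ± SD of 3. The sets nearly coincide in air and nitrogen, and after re-aeration the members stand at 66.3% and the others at 55.8%, a separation that the rule fixed.

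In the median member nitrogen stood 30.3 points above air (interquartile range 25.2 to 38.1), re-aeration stood 6.03 points below nitrogen (3.71 to 8.01) and 24.4 points above air (20.5 to 31.2). Among the other eligible regions the corresponding medians were 31.4, 16.6 and 14.1 points. The share of the gap lost had a median of 21.1% in the members and 53.0% in the others. Over all 1849 eligible regions its median was 48.9%. Of these regions, 97 had lost 25% to 30% of the gap and 131 had lost 30% to 35%, so the counts were continuous across the threshold. At the far end, 59 members had lost 10% or less, and in 27 of these the mean after re-aeration was above that in nitrogen.

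**Figure D2:**
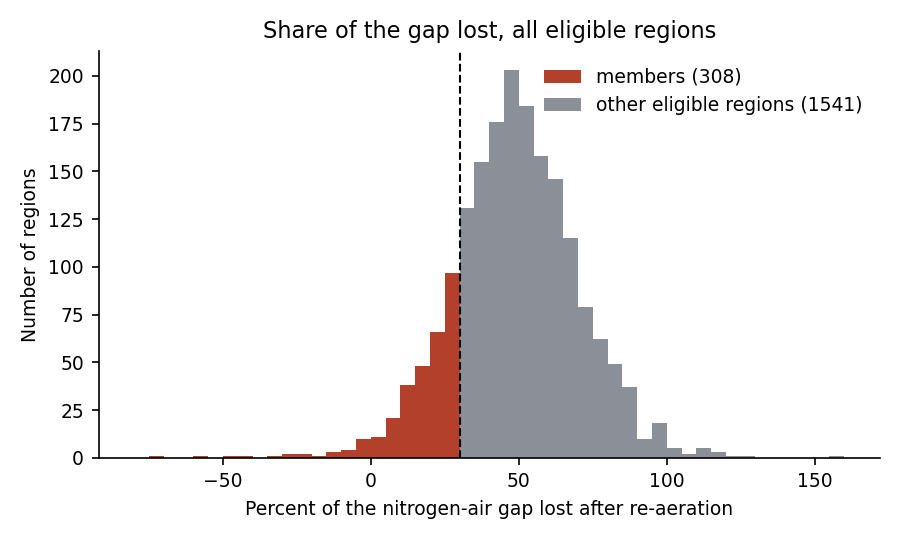
Number of regions (y axis) by the percent of the nitrogen-air gap lost after re-aeration (x axis, bins of 5 points) for the 1849 eligible regions; red marks the 308 members and the dashed line the threshold of 30%. Values below 0 are regions with a higher mean after re-aeration than in nitrogen.

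Just inside the share threshold, on chromosome 10 from 14588705 to 14588783, the libraries read 35.8%, 24.8% and 37.5% in air, 53.5%, 62.4% and 52.1% in nitrogen, and 47.6%, 52.3% and 47.1% after re-aeration, a loss of 29.9% of the gap. Just outside, on chromosome 6 from 16720865 to 16720932, they read 51.0%, 49.9% and 42.7% in air, 78.5%, 78.5% and 66.8% in nitrogen, and 63.9%, 64.9% and 70.8% after re-aeration, a loss of 30.0%. The other 2 members nearest the threshold had both lost 29.9% and the other 2 regions just beyond it 30.1% and 30.2%. At the air threshold, the 3 members with the lowest air level stood between 20.2% and 20.5%, and the 3 regions just below it, which met the other conditions, between 19.6% and 19.98%. The members with the smallest gaps had 10.1, 11.1 and 13.3 points, and 6 regions met the air level with a smaller gap.

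Members occurred at every starting level. They were 17.1% of the eligible regions with an air level of 20% to 30%, 16.3% at 30% to 40%, 20.1% at 40% to 50%, 12.8% at 50% to 60% and 9.78% at 60% or more. By the size of the gap they were between 12.1% and 20.8% of each class, with the lowest share at 10 to 20 points and the highest at 50 points or more. After re-aeration 290 members (94.2%) were at 50% or more, 123 (39.9%) at 70% or more and 19 (6.17%) at 80% or more. The shares of the other eligible regions were 69.5%, 11.1% and 1.04%, a difference that follows from the rule. In nitrogen 177 members (57.5%) were at 70% or more and 78 (25.3%) at 80% or more, against 64.9% and 32.4% of the others. In air 51 (16.6%) were at 50% or more and 0 were at 70% or more, against 23.9% and 0.519% of the others.

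Region by region, the libraries of the groups were set beside the whole table as a description, because the rule used these contrasts. The quasi-binomial logistic model with Benjamini-Hochberg adjustment called 303 members higher in nitrogen than in air, where it called 98.6% of all 2131 regions. All nitrogen libraries lay above all air libraries in 301 members, against 97.7% of the table. It called 258 members higher after re-aeration than in air, against 40.9% of the table, and all re-aeration libraries lay above all air libraries in 286 members, against 63.5%. Without air library 2 or 3 or re-aeration library 1, 2 or 3, the 258 calls went down to between 146 and 161 and the 871 calls of the table to between 372 and 448. It called 4 members lower after re-aeration than in nitrogen, against 39.2% of the table. These 835 calls of the table went down to between 197 and 324 without any single nitrogen or re-aeration library, and to 329 with the replicate number as a block. The nitrogen and re-aeration libraries overlapped in 236 members, against 31.5% of the table, all nitrogen libraries lay above all re-aeration libraries in 67 members, against 68.0%, and the reverse held in 5 members, against 0.469%.

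The 4 members called lower after re-aeration had gaps of 37.6 to 42.5 points, and are named here after their values were seen. At 22414605 to 22414665 of chromosome 10 the libraries read 43.2%, 44.996% and 45.9% in air, 88.3%, 80.8% and 81.2% in nitrogen, and 76.6%, 68.7% and 71.4% after re-aeration. Its groups did not overlap, and the mean after re-aeration was 11.2 points below that in nitrogen. The other 3, on chromosome 10 at 16301722 to 16301797 and on chromosome 12 at 2995443 to 2995470 and at 4690388 to 4690414, stood 10.4, 10.1 and 10.5 points below nitrogen. Leaving out any single nitrogen or re-aeration library brought the 4 calls down to between 0 and 2.

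How far the high level after re-aeration holds in libraries that the rule did not use was measured by leaving out 1 replicate number. Members were chosen from the other 6 libraries, and the levels were read in the 3 left-out libraries. The regions so chosen numbered 395, 370 and 333 without replicate 1, 2 and 3, and 254, 241 and 212 of these were among the 308. In the libraries used to choose them, the mean levels gave a loss of 16.7%, 15.1% and 16.9% of the gap. In the left-out libraries the loss was 38.5%, 37.5% and 35.7%, above the threshold of 30% each time. The other eligible regions lost 53.7%, 49.8% and 48.01% in the same left-out libraries, more than the chosen regions in 3 of 3. Left-out replicate 1 stood at 43.2% in air, 73.4% in nitrogen and 61.8% after re-aeration over the 395 chosen regions, left-out replicate 2 at 38.6%, 74.6% and 61.1%, and left-out replicate 3 at 40.2%, 72.8% and 61.1%. The re-aeration library was above the air library in 93.2%, 97.0% and 96.1% of the chosen regions, and in 86.4%, 93.8% and 93.8% of the others. The 3 repeats share libraries, so they are given without a test. The authors had picked all these regions for a difference between air and nitrogen, so the gap in the left-out libraries is not independent of that choice.

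**Figure D3:**
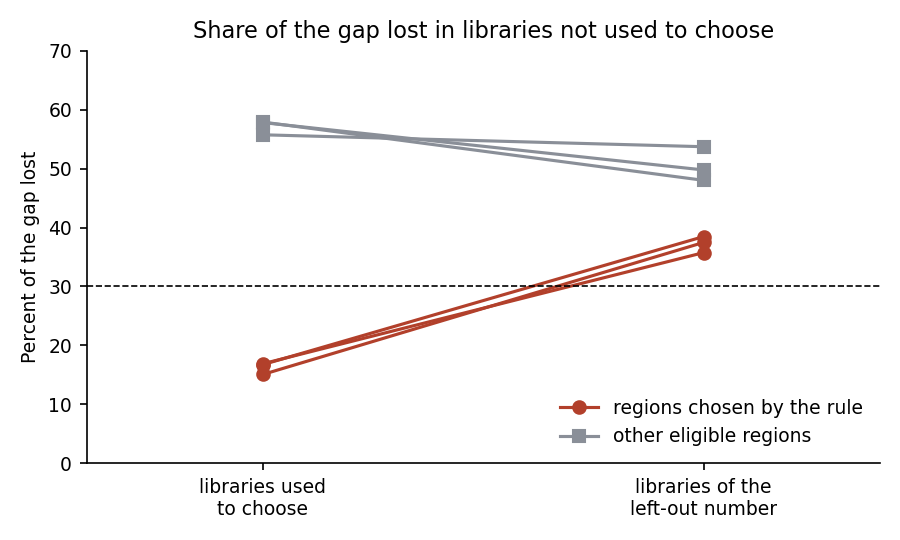
Percent of the nitrogen-air gap lost (y axis, from mean levels over the regions) in the 6 libraries used to choose regions and in the 3 libraries of the left-out replicate number (x axis); each line is 1 left-out number, red for regions chosen by the rule and grey for the other eligible regions, and the dashed line is at 30%. The red lines rise from 15.1% to 16.9% up to 35.7% to 38.5% and remain below the grey ones at 48.01% to 53.7%.

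Of the 5 members that stood highest after re-aeration relative to nitrogen, with at least 30 reads per library, 2 were also uneven in reads. On chromosome 5 from 21673711 to 21673752, a region of 42 bp, the libraries read 26.2%, 46.6% and 11.2% in air, 81.5%, 86.4% and 83.1% in nitrogen, and 98.1%, 94.8% and 92.7% after re-aeration. All re-aeration libraries were above all nitrogen libraries, and they held 302 to 322 reads where nitrogen held 119 to 131 and air 80 to 116. On chromosome 1 from 35320155 to 35320201 the air libraries spread over 21.3%, 32.4% and 71.5%, nitrogen stood at 84.1%, 78.4% and 92.9%, and re-aeration at 96.6%, 92.9% and 99.1%. Here too the re-aeration libraries held more reads, 291 to 437 against 126 to 159 in nitrogen. The other 3 were longer and had lower levels. On chromosome 3 from 10679062 to 10679258 air stood at 45.8%, 39.0% and 41.5%, nitrogen at 61.1%, 59.1% and 47.8%, and re-aeration at 63.4%, 70.9% and 64.7%.

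On chromosome 8 from 28357122 to 28357220 the means were 42.3% ± 8.11 in air, 57.7% ± 2.03 in nitrogen and 66.4% ± 5.63 after re-aeration (SD, n = 3). All re-aeration libraries also lay above all nitrogen libraries on chromosome 2 from 28742857 to 28742883, a region outside the fixed choice, with 68.9% ± 7.31 in nitrogen and 76.2% ± 2.01 after re-aeration (SD, n = 3). The rule used this contrast, so the differences are descriptions. The quasi-binomial model called 0 regions of the table higher after re-aeration than in nitrogen, with 1 member and 5 regions of the table higher below an unadjusted p of 0.05. Fitting the levels with limma called 0 members and 1 region of the table higher.

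The members with the largest gap between nitrogen and air and at least 30 reads per library showed how much air libraries could differ. On chromosome 4 from 33996292 to 33996322 air read 26.3%, 34.4% and 7.76%, nitrogen 81.6%, 85.4% and 87.3%, and re-aeration 85.9%, 63.4% and 74.6%. This region lost 16.4% of a gap of 62.0 points, and its re-aeration and nitrogen libraries overlapped. On chromosome 3 from 31312264 to 31312279 air read 21.7%, 12.8% and 47.9%, nitrogen 83.2%, 90.5% and 79.9%, and re-aeration 84.3%, 85.0% and 83.0%. It lost 0.745% of a gap of 57.0 points, with 39 to 50 reads in air. A region of 8 bp on chromosome 5 at 18411134 to 18411141 lost 29.1% of 58.6 points, and one on chromosome 10 at 1996520 to 1996546 lost 22.5% of 57.1 points. The fifth was the chromosome 5 region at 21673711 already described.

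The highest air level was on chromosome 3 from 17931051 to 17931076, with 68.4%, 63.4% and 74.0% in air, 84.6%, 80.9% and 85.8% in nitrogen, and 78.9%, 81.0% and 78.4% after re-aeration. On chromosome 11 from 22016530 to 22016581 air read 67.3%, 54.4% and 66.2%, nitrogen 81.4%, 90.7% and 87.9%, and re-aeration 85.9%, 90.5% and 81.4%, a loss of 3.10% of the gap. In both, re-aeration and air did not overlap. The other 3 of the highest air levels, at 21088634 to 21088689 of chromosome 5, 15453326 to 15453372 of chromosome 1 and 8948666 to 8948702 of chromosome 11, lost between 24.7% and 28.3% of gaps of 17.1 to 20.9 points.

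The longest region, 573 bp on chromosome 4 from 29054758 to 29055330, was also the longest of the whole table and the deepest member. It stood at 49.3%, 44.4% and 48.1% in air, 70.7%, 72.8% and 71.3% in nitrogen, and 67.5%, 67.1% and 68.6% after re-aeration, with 1813 to 2482 reads per library. Its 3 groups did not overlap, and it had lost 15.97% of a gap of 24.3 points. On chromosome 2 from 2194127 to 2194348 air read 45.1%, 34.8% and 41.6%, nitrogen 80.3%, 82.1% and 68.9%, and re-aeration 74.9%, 73.9% and 76.5%, a loss of 5.50%. On chromosome 6 from 1431855 to 1432099 the air libraries lay within 34.9% and 35.4%, nitrogen between 53.7% and 64.2% and re-aeration between 54.0% and 58.8%. The long regions at 24066666 to 24066904 of chromosome 2 and 6436407 to 6436630 of chromosome 7 lost 22.6% and 19.7%. Of the deepest members, those at 4865757 to 4865918 of chromosome 6 and 29386939 to 29387116 of chromosome 3 lost 7.22% and 24.5%.

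Members were longer in the median than the other eligible regions and than the table as a whole. Their median length was 50 bp, with an interquartile range of 24 to 79.2 bp, against 38 bp for the other eligible regions and 37 bp for the table, counting both end positions. They were 14.6% of the eligible regions under 20 bp, 13.7% of those of 20 to 49 bp, 19.1% of those of 50 to 99 bp and 23.5% of those of 100 bp or more. The median member held 197.7 reads per library, averaged over the 9, against 171.4 in the other eligible regions. Per base the medians were 4.34 and 4.49 reads. These are descriptions without a test, since regions were not sampled independently.

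Relative reads over the members were also compared between the groups. The rule did not use reads beyond its minimum of 10. It did use the levels of these same libraries, so the comparison is not fully separate from the choice of members. In each library the median reads of the members were divided by those of the other regions of the table. The log2 ratio was 0.20, 0.25 and 0.26 in the air libraries, 0.30, 0.21 and 0.27 in the nitrogen libraries, and 0.37, 0.39 and 0.51 in the re-aeration libraries. Every re-aeration library was above every library of the other groups, whereas air and nitrogen overlapped. The difference on the log2 scale was 0.16 against nitrogen and 0.18 against air, with an exact two-sided permutation p of 0.1 for each, the smallest that 3 against 3 allows, and 0.15 after Benjamini-Hochberg adjustment over 3 comparisons. Between nitrogen and air it was 0.02, with an exact permutation p of 0.5.

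The same showed across regions when reads were scaled to the total of each library over the table, a measure added after seeing the data. The median ratio of re-aeration to nitrogen reads was 1.05 in the members and 0.983 in the other eligible regions. It went from 1.16 in regions with a re-aeration mean above nitrogen, through 1.03 in those that lost 20% to 30% of the gap, to 0.957 in those that lost 80% or more. The ratio was over 1.5 in 13 members (4.22%) and in 10 of the other 1541 (0.649%), against 27 of all 2131 regions (1.27%). It was over 2 in 3 members and 0 of the other eligible regions, against 6 regions of the table. The 3 members over 2 were the chromosome 5 and chromosome 1 regions described above and one on chromosome 5 from 8032373 to 8032384. This last one had 20 to 55 reads in nitrogen and 75 to 109 after re-aeration. The ratio of nitrogen to air reads had medians of 0.995 and 1.00 in the same sets. The part of these read differences in the levels after re-aeration was not tested.

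**Figure D4:**
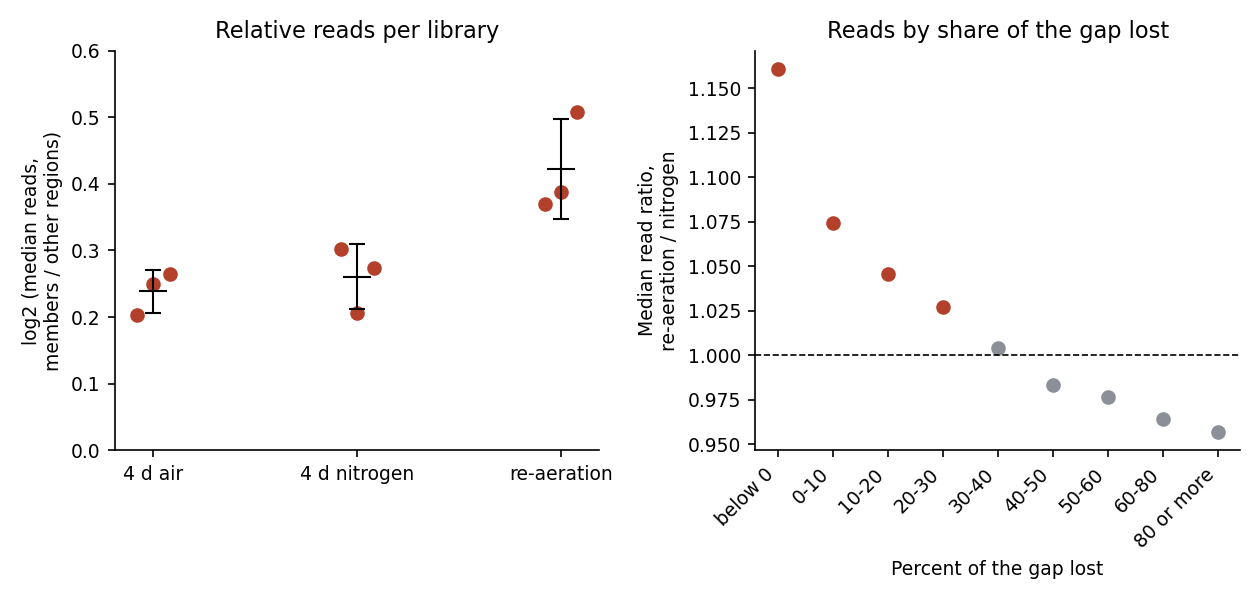
Left, log2 ratio of the median reads over the 308 members to the median over all other regions of the table (y axis) in each library, with mean ± SD of 3 in black; the re-aeration libraries lie at 0.37 to 0.51 and all others at 0.20 to 0.30. Right, median ratio of scaled reads after re-aeration to those in nitrogen (y axis) by percent of the gap lost (x axis) over the eligible regions, red where the rule takes members, falling from 1.16 to 0.957.

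Members were found on all 12 chromosomes. Their share of the regions of the table was between 8.45% on chromosome 9, with 12 of 142, and 18.1% on chromosome 7, with 28 of 155, against 14.5% over the table. Among windows of 1000000 bp, 356 held regions of the table and 191 held members, at most 5 in a window. The windows with 5 were on chromosome 10 from 17000000, with 11 regions of the table, and on chromosome 11 from 22000000, also with 11. Of the 40 neighbouring pairs of eligible regions less than 1000 bp apart, 2 were pairs of members, 10 joined a member to a region that had lost more, and 28 held no member.

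The closest pair of members lay 424 bp apart on chromosome 11. The region from 22020098 to 22020268 read 40.5%, 31.9% and 39.9% in air, 65.2%, 71.5% and 64.0% in nitrogen, and 71.2%, 67.7% and 65.6% after re-aeration. Its neighbour of 7 bp from 22020692 to 22020698 read 32.5%, 19.4% and 14.97% in air, 18.1%, 71.0% and 62.6% in nitrogen, and 40.2%, 44.7% and 48.3% after re-aeration. In the short neighbour 1 nitrogen library fell among the air libraries, and it was 1 of the 5 members not called higher in nitrogen. The second pair, 602 bp apart on chromosome 4 at 25408113 to 25408145 and 25408747 to 25408878, lost 23.8% and 25.1% of its gaps. The remaining 4 members without a call lay at 4529361 and 28343079 of chromosome 3 and 19520880 and 24175134 of chromosome 4. A library under 10 reads was left out in 2 members, on chromosome 1 from 37126668 and on chromosome 3 from 30903710, whose means for re-aeration and for air rest on n = 2.

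Earlier stages of germination could be followed in the 8 members that overlapped a region of the table made for the dry seed against 24 h. They were 2.60% of the members, against 10 of the other 1541 eligible regions (0.649%) and 19 of the 2131 regions of the table (0.892%). Within 1000 bp of such a region stood 9.74%, 8.57% and 8.73%. The members were longer than the other sets, and these shares were not matched for length. Over these 8 seed-table regions the mean level was 79.9% ± 1.19 in the dry seed, 53.8% ± 1.72 after 24 h in air and 61.4% ± 2.80 after 24 h in nitrogen (SD, n = 3). It was 40.6% ± 2.88 after 4 d in air, 65.8% ± 3.31 after 4 d in nitrogen and 71.2% ± 0.978 after re-aeration (SD, n = 3). From 4 d in nitrogen to re-aeration the rise was widest on chromosome 7 from 24779402, from 47.7% to 76.2%. The level fell instead on chromosome 3 from 1871665, chromosome 10 from 21222404 and chromosome 11 from 24634725. On chromosome 11 from 11925605 the seed-table region rose from 59.5% to 70.7%, whereas its member fell from 74.0% to 67.7%. The dry seed and 24 h libraries took no part in the choice of members, whereas the 4 d and re-aeration libraries did. The re-aeration library means, at 70.1% to 72.0%, lay below those of the dry seed, at 78.7% to 81.1%, and above those of all other groups. The same order held over the whole seed table, where the dry seed stood at 66.9% to 70.2%, re-aeration at 57.4% to 58.8% and nitrogen at 4 d at 28.8% to 30.1%, so it is not particular to the 8. Over the 10 seed-table regions that overlap other eligible regions, re-aeration was at 53.3% ± 1.74 and nitrogen at 4 d at 56.6% ± 1.21 (SD, n = 3).

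The quasi-binomial model called all 8 lower than the dry seed after 24 h in air and all 8 after 24 h in nitrogen, adjusted over the whole seed table. It called 99.1% and 96.9% of that table, which was picked for this difference, so these counts are near the background. The mean after 24 h in nitrogen was above that after 24 h in air in all 8, against 70.1% of the seed table, with a median difference of 5.91 points against 2.61 points. The seed-table regions overlapping other eligible regions had 9 of 10 in that direction and a median of 6.92 points. All 24 h nitrogen libraries lay above all 24 h air libraries in 3 of the 8, against 14.0% of the table. The model called 0 of the 8 higher in nitrogen, against 0.0170% of the table, and limma on the levels called 0. Below an unadjusted p of 0.05 in the quasi-binomial model were 2 of the 8 and, in either direction, 377 of 5886 regions of the table.

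Those 2 regions were among these 3. On chromosome 3, the seed-table region from 1871665 to 1871733 shares 21 bp with a member. It stood at 89.6%, 95.2% and 90.1% in the dry seed, 50.2%, 65.9% and 58.9% after 24 h in air, and 71.9%, 75.2% and 86.8% after 24 h in nitrogen, and the adjusted p between the gases was 0.382 in the quasi-binomial model. On chromosome 1, from 30467621 to 30467715, the dry seed read 77.5%, 76.3% and 67.2%, 24 h air 45.9%, 50.2% and 42.8%, and 24 h nitrogen 58.3%, 55.8% and 58.0%, with an adjusted p of 0.411 in that model. The same region then stood at 82.7% ± 2.64 after 4 d in nitrogen and 84.3% ± 1.45 after re-aeration, above its dry seed level of 73.7% ± 5.66 (SD, n = 3). The other was on chromosome 10 from 21222404 to 21222501, with 66.2% ± 2.53 in 24 h air and 71.8% ± 2.29 in 24 h nitrogen (SD, n = 3). Of the other members with such an overlap, those at 11925648 to 11925740 of chromosome 11 and 17146603 to 17146681 of chromosome 7 lost 27.4% and 13.2% of the gap.

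**Figure D5:**
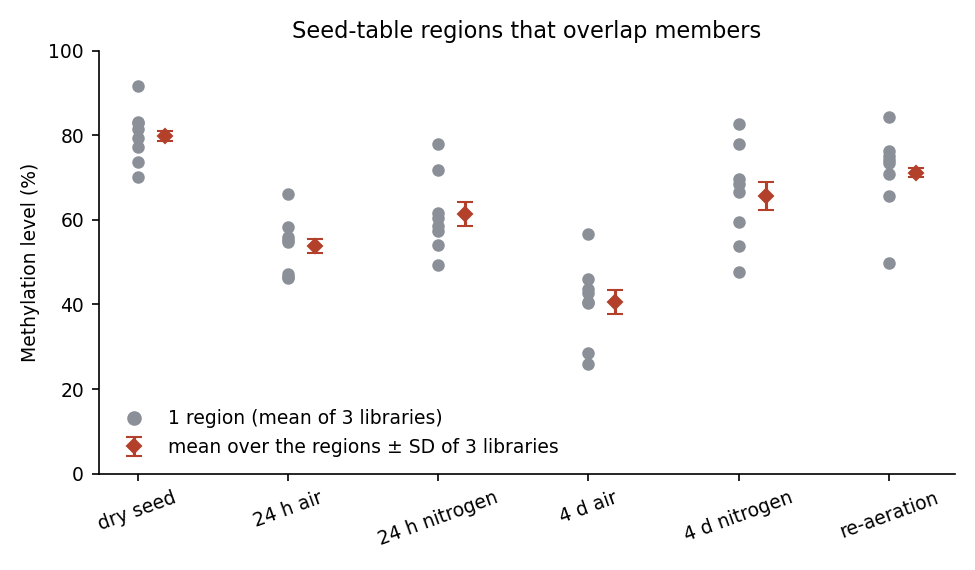
Methylation level (y axis, percent) in the 8 seed-table regions that overlap members, in each of the 6 groups; grey points are regions (mean of their libraries) and red diamonds the mean over regions ± SD of 3 libraries. The mean goes from 79.9% in the dry seed to 53.8% and 61.4% at 24 h, 40.6% and 65.8% at 4 d, and 71.2% after re-aeration.

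A single member, on chromosome 7 from 24779483 to 24779557, overlapped both other tables. Only this member overlapped the re-aeration table, 0.325% of the members against 0.454% of the other eligible regions and 0.469% of the oxygen comparison's 2131 regions. As a member it read 50.6%, 36.7% and 35.2% in air, 51.1%, 66.9% and 74.7% in nitrogen, and 69.2%, 80.2% and 74.9% after re-aeration. The re-aeration table holds an interval of 102 bp from 24779402 that shares 21 bp with it, and there air read 0%, 6.56% and 12.1%, nitrogen 15.6%, 7.45% and 42.3%, and re-aeration 77.3%, 80.9% and 83.9%. The re-aeration libraries stood above all air and nitrogen libraries in that interval, whereas in the member they overlapped with nitrogen. Reads in the interval of the re-aeration table were 409 to 457 after re-aeration, 134 to 231 in nitrogen and 87 to 157 in air. In the seed-table region from 24779402 to 24779576, which contains the member, the dry seed stood at 83.1% ± 1.45 with 931 to 1127 reads and 24 h air at 46.5% ± 5.76 with 348 to 449 reads (SD, n = 3).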

How the data were processed

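The authors deposited 3 tables of regions picked for differential methylation, with 3 columns per library. The deposited total read counts are whole numbers. The deposited methylated reads were treated as estimated counts, each a whole number times a library factor between 0.9977 and 0.9983, with whole numbers taken within 0.01, or above 100 reads within 0.01 for each 100, and were rounded. The deposited percent is the ratio of these columns. No label or header states an aligner, region caller or genome build; per the labels' protocols, 0.5% of lambda DNA was added to 600 ng of DNA. Libraries were grouped by title and columns by group and number, with 0 per-library columns unused.

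A group level is the mean percent over libraries with at least 10 reads. Each table was tested whole with a quasi-binomial logistic model (numpy 2.4.6, scipy 1.17.1) on counts, 1 term per group, a spread per region shared by all its groups and kept at 1 or above, and a deviance F test. A call needed a Benjamini-Hochberg adjusted p under 0.05, a difference of 10 points and 2 libraries per group. The model was tested on simulated counts. limma 3.58.1 on levels was an alternative. Overlap means 1 bp or more. No source states whether deposited starts count from 0 or 1.

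Members and lists were chosen with earlier results of these data known. Named regions followed a fixed rule: among members with 30 reads in every library, the 5 with the largest gap, the highest re-aeration over nitrogen and the highest air level; the 5 longest and 5 deepest; 3 on each side of each threshold; pairs under 1000 bp; and overlaps with the other tables. Exceptions are marked.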

Additional observations from a re-analysis of the deposited data

How the results depend on the processing

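The number of members was within 1.5 times of 308 under all alternatives except the share threshold itself, which gave 145 members at 0.20 and 594 at 0.40. Leaving out 1 library, or all libraries of a number, gave 293 to 395 members. With 1 library left out, between 231 and 280 of the 308 remained, and 122 remained under all 9 such choices. The median length stayed between 42.5 and 56 bp. The added alternative without regions over 1.5 times in reads, chosen after seeing the data, gave 295.

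Same-numbered libraries did not deviate together (r between -0.0113 and 0.0449 for the 9 pairs, against -0.0614 to 0.0458 for pairs of different numbers). This does not settle whether same-numbered libraries were grown or prepared together. With the replicate block the calls of re-aeration below nitrogen went from 835 to 329 over the table and from 4 to 0 in the members, and the calls of re-aeration above air from 871 to 461 and from 258 to 171. With a spread from only the groups compared these 4 counts were 420, 1, 377 and 145. With a difference of 20 points they were 404, 0 and 504, and the fourth held within 1.5 times. Limma on the levels called 1155 regions of the table and 2 members lower after re-aeration than in nitrogen. It called 1242 regions of the table and 293 members higher after re-aeration than in air. With 1 library left out the counts ranged from 197 to 746, 0 to 4, 372 to 720 and 146 to 235, and those of nitrogen above air from 1995 to 2085 over the table and 284 to 300 in the members. The cause was not tested, other than that fewer libraries or degrees of freedom enter some fits.

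Within 1000 bp, 30 members lay near the seed table and 2 near the re-aeration table; with 50% of the member covered, 0 overlapped the latter. In the seed table, the 8, 8 and 0 calls did not change with 1 library left out. The log2 read difference between nitrogen and air turned to -0.0165 against other eligible regions; without 1 library it was 0.00107 to 0.05, and those of re-aeration 0.12 to 0.19 over nitrogen and 0.14 to 0.21 over air. Of 194 alternatives over all results, 154 stayed within 1.5 times of the main count or median length, or kept the sign of a read difference. In 1 that sign reversed. Of the 194, 23 concern the median length, and all of these stayed within 1.5 times. Between replicates the mean chi-square per region was 3.57 to 4.58, so libraries differed by more than independent counts would. Whether 1 read counts several times within a region, which would also raise this value, was not examined.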
